A study of Mus musculus with 18 samples.

Results

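The 58 genes described here encode subunits of transmitter receptors. They comprise the ionotropic glutamate receptors (Gria, Grin, Grik and Grid genes), the metabotropic glutamate receptors (Grm), the GABA-A, GABA-C and GABA-B receptors (Gabra, Gabrb, Gabrg, Gabrr, Gabbr1 and Gabbr2), the glycine receptors (Glra genes and Glrb) and the nicotinic acetylcholine receptors (Chrna and Chrnb). They were taken by symbol from the 54532 genes of a count table, as protein-coding genes of these families. Grm6, Grik1 and Gabrr1, which mark bipolar cell classes, were left out by the rule, and the subunits named by other letters (Gabrd, Gabre, Gabrp, Gabrq, Chrnd, Chrne and Chrng) lie outside it.

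The libraries came from retinas of rd1 mice of the FVB strain at postnatal day 30. All mice carried the rd1 allele and received the vector AAV8-GFP under the retina, and the TGFB1 groups received AAV8-TGFB1 with it, so no group was free of vector. Antibody staining and sorting of the dissociated retina gave 14 libraries of microglia, 7 for each treatment, and 4 of all remaining cells (non-microglia), 2 for each treatment. The sources used here do not give the promoters of the vectors, the species of the TGFB1 sequence or whether libraries came from separate animals. A p-value therefore speaks of the variation among the libraries, some of which may be technical.

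Ionotropic receptors are ion channels that open when transmitter binds, and metabotropic receptors act through G proteins. In the retina, photoreceptors and bipolar cells release glutamate, while amacrine and horizontal cells release GABA, glycine or acetylcholine onto one another and onto bipolar and ganglion cells. OFF bipolar cells sense photoreceptor glutamate with ionotropic receptors and ON bipolar cells with Grm6. GABA-C (Gabrr) subunits form slow GABA-gated channels that are best known from bipolar cell terminals. The rd1 allele disables a rod phosphodiesterase and leads to early loss of rods.

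Total counts ran from 1582451 to 3064027 per library, and a count of 3 in a library, the floor used here, corresponded to 0.881 to 2.12 CPM (counts scaled to a common library size with TMM factors). Microglia markers fitted the labels: 10 genes such as P2ry12 and Tmem119 summed to between 39280 and 48860 CPM in the microglia libraries and to between 54.6 and 68.0 CPM in non-microglia. Tgfb1 had 0 counts in both GFP non-microglia libraries and 462 and 402 counts in the TGFB1 ones, and its mean in microglia was 12.6 CPM with GFP and 14.5 CPM with TGFB1. Among microglia, 3 libraries stood apart by RNA of Müller glia, though not of every other retinal cell type. The 7 cone genes summed highest in GFP microglia 6 (244 CPM) and TGFB1 microglia 5 (181 CPM). The 11 ON bipolar genes summed highest in GFP microglia 2 and TGFB1 microglia 6, but to 52.8 CPM in GFP microglia 5 against 64.1 CPM in GFP microglia 4. A list of 9 Müller glia genes summed to 883 CPM in GFP microglia 5, 822 CPM in GFP microglia 2 and 736 CPM in TGFB1 microglia 6. The 58 genes together summed to 446 CPM in GFP microglia 2 and 356 CPM in TGFB1 microglia 6, against a median of 161 CPM in GFP and 98.7 CPM in TGFB1 microglia. The TGFB1 comparison in microglia and the comparisons between fractions were therefore also run without these 3 libraries. The difference of TGFB1 effects between fractions was not.

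**Figure D1:**
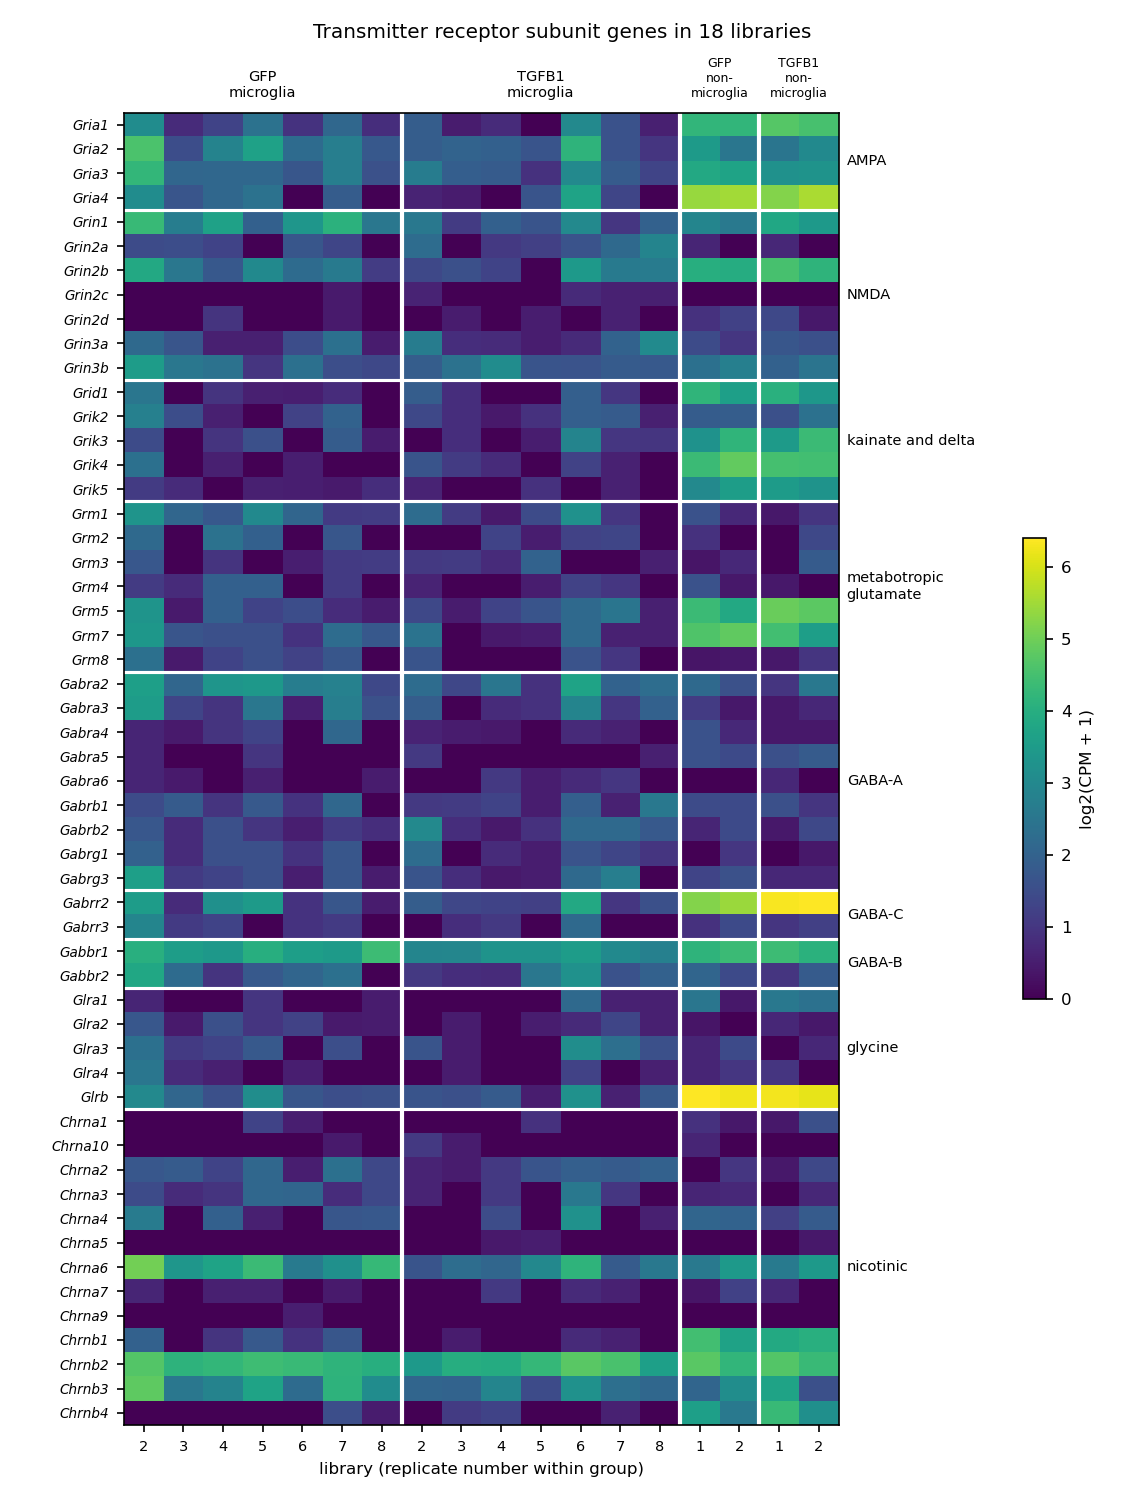
Each row is 1 of 54 receptor subunit genes shown, grouped by family, and each column a library; colour gives log2(CPM + 1). Most rows are brighter in the 4 non-microglia libraries on the right, and GFP microglia 2 and TGFB1 microglia 6 are the brightest microglia columns, with 446 and 356 CPM over all 58 genes.

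The receptor genes were read most in the non-microglia. In GFP non-microglia 24 of the 58 averaged at least 5 CPM, and in GFP microglia 11 did. A count in every library was found for 48 in GFP non-microglia and 27 in GFP microglia. At 0 in every library were 4 and 1. These last counts cover 2 non-microglia but 7 microglia libraries, so nothing is read from comparing them. No share of all genes is given for any of these counts. Summed over the family, the 12 GABA-A genes came first in GFP non-microglia with 142 CPM ± 0.101 (SD, n = 2), followed by the 6 kainate and delta genes with 96.0 CPM ± 11.9. The 5 glycine receptor genes gave 83.4 CPM ± 7.04 and the 4 AMPA genes 81.1 CPM ± 2.82. The nicotinic family was the largest by members, with 13 genes, and reached 65.0 CPM ± 9.48. Metabotropic glutamate genes gave 45.9 CPM ± 4.45, the 2 GABA-C genes 40.6 CPM ± 5.02, NMDA genes 28.2 CPM ± 0.829 and the 2 GABA-B genes 20.6 CPM ± 0.878. Each of these sums rested on a few genes, and 4 members had no count in either library.

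Levels of different genes were compared per kilobase of exon, since longer transcripts collect more reads. On that scale Gabrr2, a GABA-C subunit, was highest in GFP non-microglia with 18.7 CPM per kilobase, ahead of Glrb with 16.9 CPM per kilobase; the libraries of these genes overlapped. Glrb is the beta subunit that anchors glycine receptors to gephyrin. Gria4, an AMPA subunit, reached 6.86 CPM per kilobase and Chrnb1, the beta subunit of the muscle-type nicotinic receptor, 6.45 CPM per kilobase. The highest metabotropic glutamate, kainate, GABA-B and NMDA members were Grm7 (4.34 CPM per kilobase), Grik4 (3.97), Gabbr1 (2.34) and Grin3b (1.49). Of the exon bases of Grin3b, 32.1% are shared with Tmem259. The strand setting of the counting is not given, so reads of these genes cannot be told apart there and the rank of Grin3b is uncertain. Grin1, the subunit that every NMDA receptor needs, reached 0.594 CPM per kilobase.

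**Figure D2:**
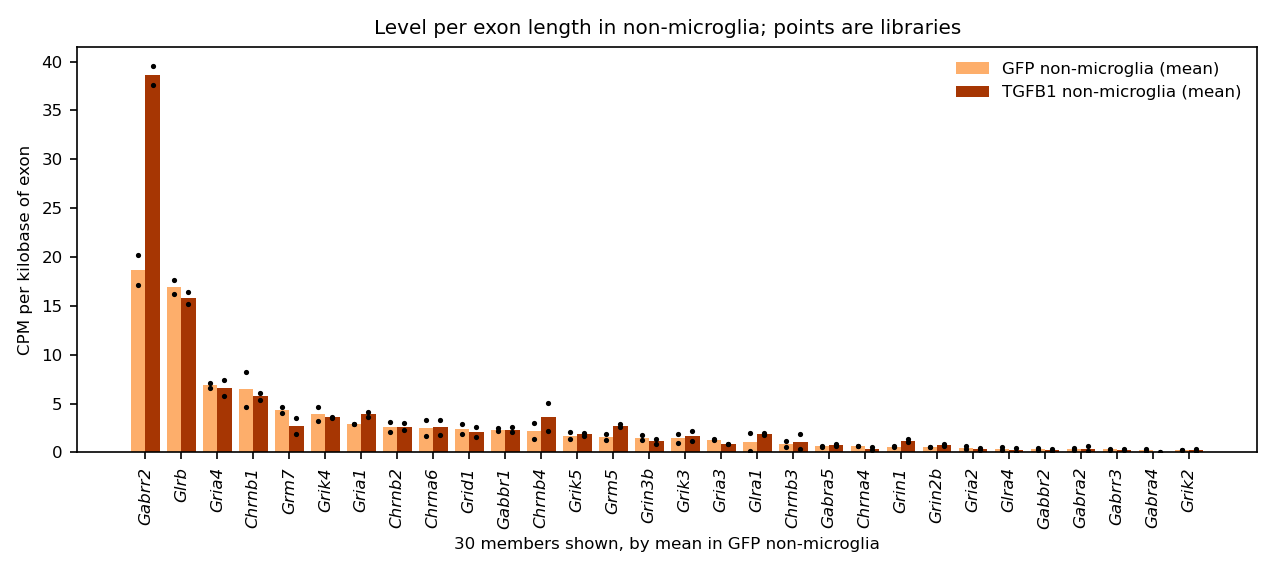
Bars give the mean level per kilobase of exon, from 0, in GFP and TGFB1 non-microglia for 30 members, ordered by their level in GFP non-microglia, and black points the libraries. Gabrr2 stands at 18.7 and 38.6 CPM per kilobase, and Glrb at 16.9 and 15.8.

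Among glutamate receptor genes the AMPA subunit Gria4 had 41.7 and 44.8 CPM in the GFP and 36.2 and 46.8 CPM in the TGFB1 non-microglia libraries. The groups overlapped. Grik4, a kainate subunit that needs a partner from Grik1 to Grik3 to form a channel, had 19.4 and 27.9 CPM with GFP and 21.9 and 21.1 CPM with TGFB1, again with overlap. Among the inhibitory receptors Glrb had 82.2 and 75.4 CPM with GFP and 76.6 and 70.8 CPM with TGFB1. These groups overlapped too. The log2 fold change of Glrb was -0.09 ± 0.138 (SE; edgeR quasi-likelihood test, adjusted p = 0.964). The nicotinic subunits Chrnb1 (20.9 and 11.8 CPM, then 13.7 and 15.3 CPM) and Chrnb2 (25.9 and 17.5 CPM, then 24.8 and 19.2 CPM) overlapped too.

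TGFB1 and GFP retinas were then compared within the non-microglia. Gabrr2 rose in TGFB1 retinas, about 2.08-fold. It was the 1 member called among 27 tested, where 0.39% of all 13598 tested genes were called in either direction and 0.338% were higher and 0.0515% lower in TGFB1 retinas. Gabrr2 (ENSMUSG00000023267) lies on chromosome 4 at 33062999-33095865 on the plus strand of GRCm38, and its exons overlap no other annotated gene. It had 123 and 126 counts, or 36.1 and 42.4 CPM, in the GFP libraries and 243 and 256 counts, or 79.2 and 83.2 CPM, in the TGFB1 libraries. Both TGFB1 libraries lay above both GFP libraries. The means were 39.3 CPM ± 4.46 (SD, n = 2) and 81.2 CPM ± 2.78 (SD, n = 2), the log2 fold change was 1.06 ± 0.160 (SE), and the adjusted p of the edgeR quasi-likelihood test was 0.000539. The call was lost when the spread was estimated from all 18 libraries together (log2 fold change 1.05, adjusted p = 1) and held in the other 11 alternatives, with log2 fold changes from 0.935 to 1.18.

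The promoter of this gene is shown because it was the member that passed the test, beside that of Gabrr1, another GABA-C gene, which neighbours it on chromosome 4. Each sequence runs from 250 bases before to 50 bases after the RefSeq start in GRCm38.p6, on the plus strand. Capitals mark the hexamer TAATCC, the core recognised by the bipolar and photoreceptor factors OTX2 and CRX, read on either strand (here as GGATTA), with bases counted from the 5′ end.
Gabrr2, chr4:33062862-33063161: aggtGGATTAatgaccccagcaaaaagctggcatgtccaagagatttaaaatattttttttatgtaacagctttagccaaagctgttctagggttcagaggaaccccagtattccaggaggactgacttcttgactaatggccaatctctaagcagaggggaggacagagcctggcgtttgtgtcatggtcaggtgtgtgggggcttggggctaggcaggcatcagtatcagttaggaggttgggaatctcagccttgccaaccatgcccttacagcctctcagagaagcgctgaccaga
Gabrr1, chr4:33132306-33132605: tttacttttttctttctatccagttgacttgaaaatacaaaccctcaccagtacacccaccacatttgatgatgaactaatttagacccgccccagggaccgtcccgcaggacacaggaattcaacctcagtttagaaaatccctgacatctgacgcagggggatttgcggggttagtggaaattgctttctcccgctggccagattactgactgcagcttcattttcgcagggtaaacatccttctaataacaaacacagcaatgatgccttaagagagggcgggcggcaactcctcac
The Gabrr2 window held 1 match, starting at base 5, and the Gabrr1 window held 0. The hexamer occurred in 7.06% of 32851 RefSeq promoters of this length and in 2 of the 49 promoters found for 41 of the members. A match is a description of the letters and not of binding.

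ON bipolar cell markers were higher in the same libraries. Of 11 ON bipolar genes 7 rose and none fell, and their sum went from 1291 and 1223 CPM in the GFP libraries to 2193 and 1925 CPM in the TGFB1 libraries. Trpm1, the cation channel of ON bipolar dendrites, rose by 0.91 ± 0.0938 on the log2 scale (SE; edgeR, adjusted p = 4.925e-06), and Grm6, the receptor that controls it, by 0.91 ± 0.113 (adjusted p = 5.711e-05). Of 5 pan-bipolar genes Cabp5 rose by 0.74 ± 0.109 on the log2 scale (adjusted p = 0.00047 in edgeR) and the rest did not pass. Of 4 OFF bipolar genes only 1 had enough reads to be tested and it was not called, and their sum ran from 61.6 to 62.0 CPM with GFP and from 42.2 to 47.6 CPM with TGFB1. Of 4 tested erythroid genes 3 fell. Photoreceptor markers were lower in sum: 7 cone genes went from 1613 and 1890 CPM to 838.5 and 1179 CPM, and 7 rod genes from 261 and 347 CPM to 145 and 193 CPM. Neither pair of groups overlapped, and none of the 7 cone and 3 rod genes tested was called. The part of these shifts in the Gabrr2 result was not tested. In such bulk samples a change in the number of cells of one type and a change in RNA per cell cannot be told apart.

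Grm5, a metabotropic receptor that signals through phospholipase C, had 19.7 and 13.5 CPM with GFP and 29.7 and 26.3 CPM with TGFB1 (difference 0.75 ± 0.251 on the log2 scale, SE, adjusted p = 0.347 in edgeR). Grin1 had 6.46 and 5.05 CPM with GFP and 13.0 and 10.1 CPM with TGFB1 (1.001 ± 0.391, adjusted p = 0.504). Grm7, a presynaptic metabotropic receptor of low glutamate affinity, went the other way, with 23.8 and 27.3 CPM with GFP and 20.9 and 11.1 CPM with TGFB1 (-0.67 ± 0.279, adjusted p = 0.561). The size of the Grm7 difference rested on single libraries: it was -1.20 without TGFB1 non-microglia 1 and -0.28 without TGFB1 non-microglia 2, and it passed in neither fit. In all 3 the groups did not overlap, and none passed the threshold. Over the tested members 9 of 27 had groups that did not overlap, 33.3% against 36.4% of all tested genes, 7 with TGFB1 above and 2 below. The median log2 fold change of the 27 was 0.0444, beside -0.000619 over all genes, with 16 positive and 11 negative values, and 6 had an unadjusted p under 0.05, as did 7.63% of all tested genes.

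**Figure D3:**
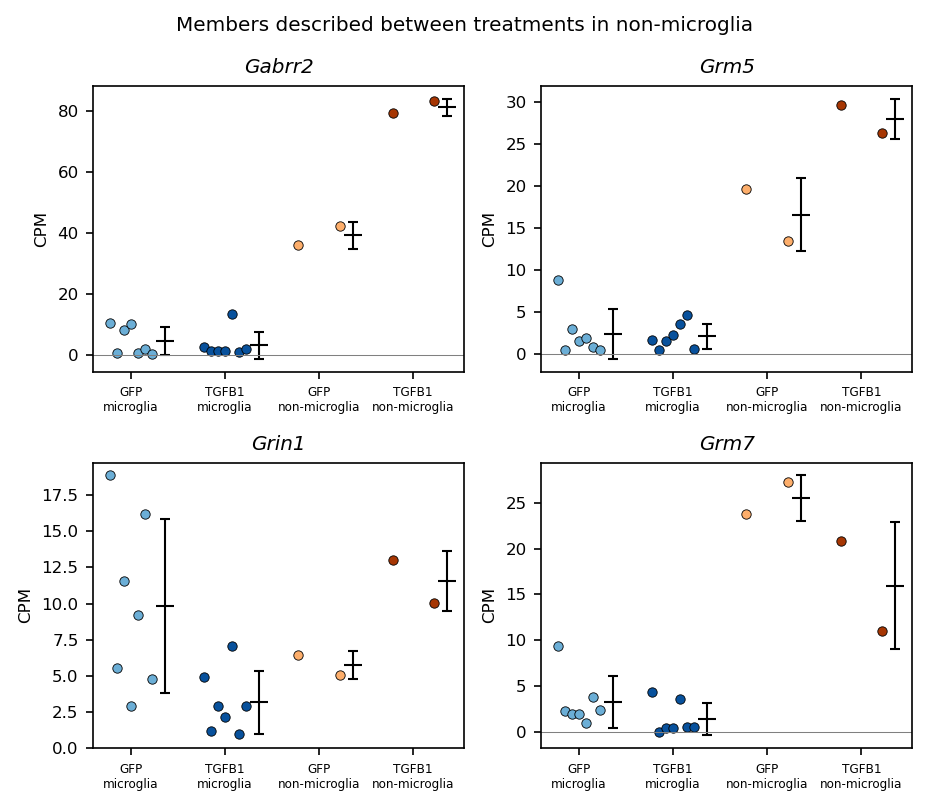
CPM of 4 of the members with the smallest p between treatments in non-microglia; each point is a library of one of the 4 groups, and the bars beside them give mean and SD. In non-microglia Gabrr2 goes from a mean of 39.3 to 81.2 CPM, and Grm7 is the only 1 of the 4 whose TGFB1 libraries lie below the GFP libraries.

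In microglia no member was called between treatments. Of the 58 members 6 had enough reads to be tested, where 0.31% of 10970 tested genes were called, 0.237% higher and 0.0729% lower in TGFB1 retinas. By edgeR 0 of the 6 passed, although 4 had an unadjusted p under 0.05, as did 6.65% of all tested genes; by DESeq2 Grin1 was called, and by limma voom none. All 6 log2 fold changes were negative, with a median of -1.06 beside 0.003 over all genes. A gene that is read mainly in GFP libraries passes the filter through them and then has to be negative, so nothing is read from this direction. Without the filter 17 of the 58 members were positive and 41 negative, with a median of -0.44. No share or median of all genes is given for that fit, so nothing is read from these signs either.

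Grin1 (ENSMUSG00000026959, chromosome 2, 25291181-25319187, minus strand) had the smallest p. Its level ran from 2.90 CPM through a median of 9.20 to 18.9 CPM in GFP microglia and from 1.02 through 2.92 to 7.06 CPM in TGFB1 microglia. The groups overlapped, and the highest values of each were in GFP microglia 2 and TGFB1 microglia 6. The mean was 9.86 CPM ± 6.01 (SD, n = 7) with GFP and 3.17 CPM ± 2.15 (SD, n = 7) with TGFB1, a log2 fold change of -1.70 ± 0.446 (SE; edgeR, adjusted p = 0.188). Without the 3 libraries that stand apart it was -1.92 (edgeR, adjusted p = 0.0175). Without GFP microglia 5 alone it was -1.86 (edgeR, adjusted p = 0.0454), so the call depended on the libraries used. Among the GFP libraries, GFP microglia 5 had the lowest Grin1 level (2.90 CPM, 6 counts), so leaving it out raises the GFP mean. The call also depended on the test: Grin1 was called by DESeq2 (log2 fold change -1.69, adjusted p = 0.0364) and by edgeR without the filter on low counts (adjusted p = 0.000284). Of the exon bases of Grin1, 13.5% are shared with its antisense gene Grin1os, whose mean was 4.53 CPM in GFP and 1.38 CPM in TGFB1 microglia. The sources used here do not give the strand setting of the counting, so reads of these genes cannot be told apart there.

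Gabbr1, the subunit of the GABA-B receptor that binds GABA, ran from 9.63 through 11.04 to 19.9 CPM in GFP microglia and from 5.87 through 7.14 to 10.6 CPM in TGFB1 microglia. Of the TGFB1 libraries only TGFB1 microglia 6 reached into the GFP range. The log2 fold change was -0.77 ± 0.219 (SE; edgeR, adjusted p = 0.226). Its partner Gabbr2, which couples to the G protein, had too few reads to be tested, with a mean of 3.91 CPM with GFP and 2.98 CPM with TGFB1.

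Chrna6 and Chrnb3 encode nicotinic subunits that co-assemble in the brain and visual system, and they lie next to each other within 45.2 kilobases of chromosome 8 (27368711-27413944). Chrna6 ran from 5.06 through 12.04 to 31.8 CPM in GFP microglia and from 2.18 through 3.91 to 16.9 CPM in TGFB1 microglia. Chrnb3 ran from 3.68 through 7.57 to 27.1 CPM and from 1.74 through 3.42 to 8.47 CPM. Both pairs of groups overlapped, with the highest values again in GFP microglia 2 and TGFB1 microglia 6. The log2 fold changes were -1.42 ± 0.490 (SE; edgeR, adjusted p = 0.497) for Chrna6 and -1.35 ± 0.451 (adjusted p = 0.44) for Chrnb3. Chrnb2, which pairs with alpha subunits in most neuronal nicotinic receptors, gave the smallest difference of the 6, at 15.1 to 24.7 CPM (median 17.8) with GFP and 9.82 to 26.1 CPM (median 14.8) with TGFB1 (log2 fold change -0.18 ± 0.197, edgeR adjusted p = 0.93). Of the exon bases of Chrnb2, 16.3% are shared with Adar, which had a mean of 55.2 CPM in GFP microglia.

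**Figure D4:**
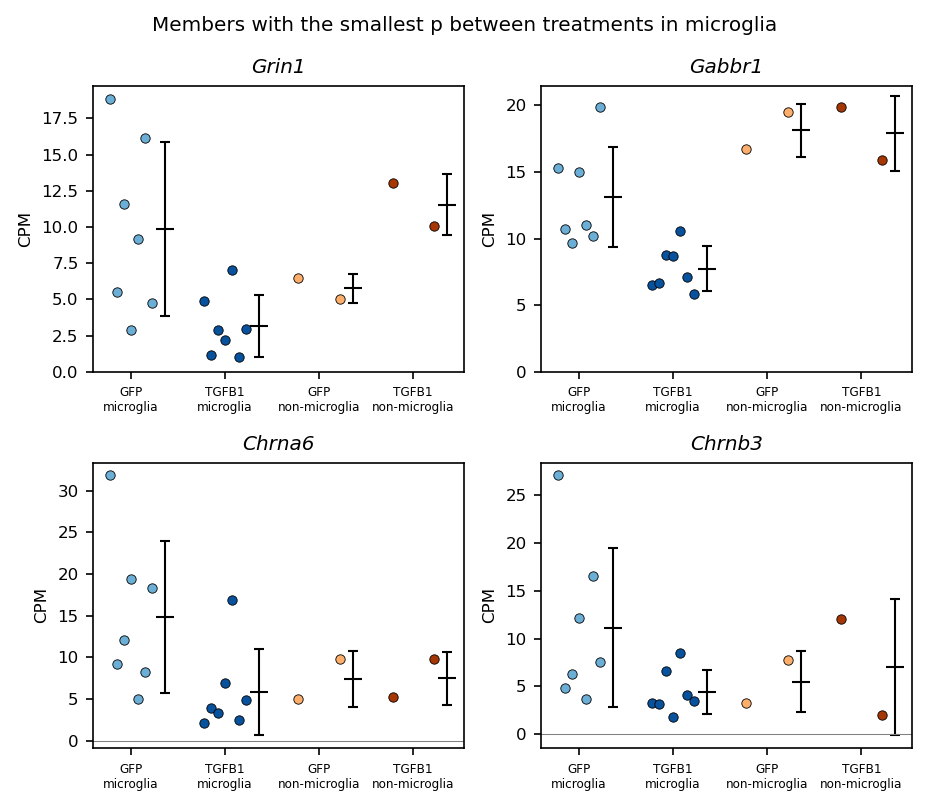
CPM of the 4 members with the smallest p between treatments in microglia, with each library of the 4 groups as a point and mean and SD beside them. Means in microglia are 9.86 and 3.17 CPM for Grin1 and 13.1 and 7.75 CPM for Gabbr1, with overlapping groups in every panel.

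Mean sums of ganglion, Müller glia, bipolar, amacrine, cone and rod markers were lower in TGFB1 than in GFP microglia, with overlapping ranges. The mean sum of 4 horizontal cell markers was higher, at 2.59 CPM with GFP and 3.65 CPM with TGFB1. The 10 ganglion cell markers summed to between 35.6 and 77.8 CPM with GFP and between 24.3 and 50.4 CPM with TGFB1, and the 9 Müller glia markers to between 394 and 883 CPM and between 309 and 736 CPM. None of the 3 ganglion and 8 Müller glia markers tested in microglia was called, and Pou4f2 was at 0 in every TGFB1 library. A fit with a covariate for the summed markers of these cell types was among the alternatives. In it Grin1, Gabbr1, Chrna6 and Chrnb3 stayed negative and none was called. Over the 10 alternatives other than leaving out 1 library, the log2 fold change ran from -1.92 to -1.41 for Grin1. It ran from -0.773 to -0.652 for Gabbr1, from -1.43 to -0.891 for Chrna6 and from -1.37 to -0.741 for Chrnb3. The part of each cell type in these values was not tested.

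The TGFB1 effect in non-microglia was also compared directly with that in microglia. No member of 34 tested was called in edgeR, where 0.0131% of 15321 genes were. DESeq2 and limma voom called no member either. In edgeR 2 of the 34 members had an unadjusted p under 0.05, as did 4.64% of all tested genes. The effect on Grin1 was 2.69 ± 0.777 (SE) higher on the log2 scale in non-microglia (edgeR, adjusted p = 0.715). For Gabrr2 the difference was 1.65 ± 1.04 (adjusted p = 1), so its rise in non-microglia was not shown to differ from its change in microglia, where it ran from 0.398 to 10.6 CPM with GFP and from 1.02 to 13.4 CPM with TGFB1.

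Between sorted fractions the receptor genes were lower in microglia wherever a difference was called. In GFP retinas 17 of 34 tested members were lower in microglia and 0 higher, where 64.2% of 15321 genes were called, 34.2% lower and 29.9% higher. In TGFB1 retinas 21 of 34 were lower and 0 higher, where 65.2% were called, 34.4% lower and 30.8% higher. The median log2 fold change of the members was -1.45 in GFP and -2.70 in TGFB1 retinas, beside -0.06 and -0.04 over all genes. Many members entered this test only through reads in the non-microglia, so these counts and medians describe the members that passed and no others. Without the 3 libraries that stand apart 19 and 22 members were lower. With RLE in place of TMM scaling, which moved the median of all genes by -0.116 and -0.124, the counts were 17 and 21.

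Among glutamate receptor genes in GFP retinas, 3 of 4 tested AMPA and 5 of 6 kainate and delta genes were called lower in microglia. So were 1 of 4 NMDA and 2 of 3 metabotropic glutamate genes, beside 34.2% of all genes. Grik4 was lower in microglia by a log2 fold change of -5.22 ± 0.646 (SE; edgeR, adjusted p = 2.62e-07) in GFP retinas, with 0 to 4.12 CPM (median 0) in microglia against 19.4 and 27.9 CPM in non-microglia. Further kainate and delta genes called in both treatments included Grik3, Grik5 and Grid1, whose log2 fold changes ran from -3.88 to -3.51 in GFP retinas. Delta subunits bind cerebellin-type organisers and do not open in response to glutamate. The AMPA subunit Gria4 had 0 to 7.66 CPM (median 2.63) in GFP microglia against 41.7 and 44.8 CPM in non-microglia (-3.98 ± 0.726, adjusted p = 0.000154). Gria1, Grm5 and Grm7 were lower too, with -2.74, -2.95 and -3.03. Gria3 (-1.31, adjusted p = 0.0393) and Grin2b (-1.48, adjusted p = 0.0394), an NMDA subunit that binds glutamate, passed by a small margin in GFP retinas. By DESeq2 neither was called (adjusted p = 0.0665 for Gria3 and 0.0631 for Grin2b), nor was Gria3 in an edgeR fit of the GFP libraries alone (adjusted p = 0.0802). Each lost the call in 9 of 18 fits that left out 1 library: any of the 4 non-microglia libraries, or GFP microglia 3, 4, 6 or 8, and also 5 for Gria3 and 7 for Grin2b. Without GFP non-microglia 1 the adjusted p was 0.186 for Gria3 and 0.166 for Grin2b. Gria3 also passed narrowly in TGFB1 retinas (-1.48, adjusted p = 0.0336) and lost that call in 7 such fits, those without TGFB1 non-microglia 1 or 2 or without TGFB1 microglia 3, 4, 5, 7 or 8 (adjusted p up to 0.136).

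The AMPA subunit Gria2, which keeps AMPA receptors closed to calcium, did not pass in either treatment. It had 1.85 to 23.0 CPM (median 5.64) in GFP microglia and 10.3 and 4.71 CPM in GFP non-microglia, and its log2 fold change was -0.03 ± 0.797 (SE; edgeR, adjusted p = 0.977). In TGFB1 retinas it had 0.978 to 16.9 CPM (median 2.73) against 4.57 and 7.15 CPM (-0.54 ± 0.868, adjusted p = 0.598). Here the highest microglia library of each group was one that stood apart, and without the 3 such libraries Gria2 was lower in TGFB1 microglia (-1.28, adjusted p = 0.0239). Grin3b, an NMDA subunit that binds glycine, had 0.968 to 10.6 CPM in GFP microglia and 4.11 and 5.72 CPM in GFP non-microglia (-0.32 ± 0.592, adjusted p = 0.65), and 32.1% of its exon bases are shared with Tmem259.

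For some inhibitory receptor genes the fractions also lay far apart. In GFP retinas 1 of 6 tested GABA-A, 0 of 2 GABA-B, 1 of 1 GABA-C and 2 of 2 glycine receptor genes were called lower. Over all genes 34.2% were called lower. Glrb had 1.88 to 7.75 CPM (median 2.30) in GFP microglia against 82.2 and 75.4 CPM in non-microglia, a log2 fold change of -4.45 ± 0.372 (SE; edgeR, adjusted p = 1.39e-09). Gabrr2 differed by -3.15 ± 0.652 (adjusted p = 0.000496) in GFP and by -4.80 ± 0.655 (adjusted p = 7.59e-06) in TGFB1 retinas. For neither gene did a microglia library reach the non-microglia range. Glra1, the alpha subunit of the adult glycine receptor, was called lower (-3.09, adjusted p = 0.0153) although its GFP non-microglia libraries had only 16 and 1 counts.

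The GABA-A alpha subunit gene Gabra2 had 1.59 to 11.2 CPM (median 6.02) in GFP microglia and 3.52 and 2.02 CPM in GFP non-microglia. Its log2 fold change was 1.20 ± 0.724 (edgeR, adjusted p = 0.154). Gabra3 had the largest positive difference (2.14 ± 1.10, edgeR adjusted p = 0.093). It had only 4 and 1 counts in GFP non-microglia, with a mean under the floor at 0.756 CPM. In GFP microglia Gabra3 had 1 to 18 counts, the most in GFP microglia 2. Neither gene passed.

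Gabbr1 and Grin1 were called in TGFB1 retinas and not in GFP retinas. Gabbr1 had a log2 fold change of -0.47 ± 0.264 (SE; edgeR, adjusted p = 0.124) in GFP and of -1.21 ± 0.271 (adjusted p = 0.000386) in TGFB1 retinas, and Grin1 one of 0.75 ± 0.551 (adjusted p = 0.243) and of -1.94 ± 0.532 (adjusted p = 0.00274). The tests of the differences of effects above did not pass for either gene. In GFP retinas Gabbr1 was also called lower by limma voom with quality weights on all libraries (-0.54, adjusted p = 0.029) and by edgeR without GFP microglia 8 (-0.61, adjusted p = 0.0399).

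Of 6 tested nicotinic genes 2 were called lower in microglia in GFP and 2 in TGFB1 retinas, beside 34.2% and 34.4% of all genes. Chrnb1 had 0 to 2.94 CPM (median 0.963) in GFP microglia against 20.9 and 11.8 CPM in non-microglia (-3.62 ± 0.542 (SE), edgeR adjusted p = 2.63e-06), and in the 7 TGFB1 microglia libraries it had 1 count in each of 3 and 0 in the rest. Chrnb4 was lower as well (-4.28, adjusted p = 4.78e-05), with 38 and 15 counts in GFP non-microglia. Chrna6, Chrnb3 and Chrnb2 did not pass. Chrna6 was the highest member per kilobase in GFP microglia, with 5.12 CPM per kilobase against 2.54 in GFP non-microglia, but its microglia libraries (5.06 to 31.8 CPM) overlapped those of non-microglia (4.99 and 9.77 CPM; 0.99 ± 0.632, adjusted p = 0.18). In GFP retinas 3 of 4 tested ganglion cell markers were called higher in microglia. The defining genes Pou4f1, Pou4f2 and Pou4f3 had means under the floor there, from 0.203 to 0.575 CPM. In TGFB1 retinas 2 of 4 tested markers were called higher. Over all genes 29.9% and 30.8% were called higher. The part of ganglion cell RNA in these levels was not tested.

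**Figure D5:**
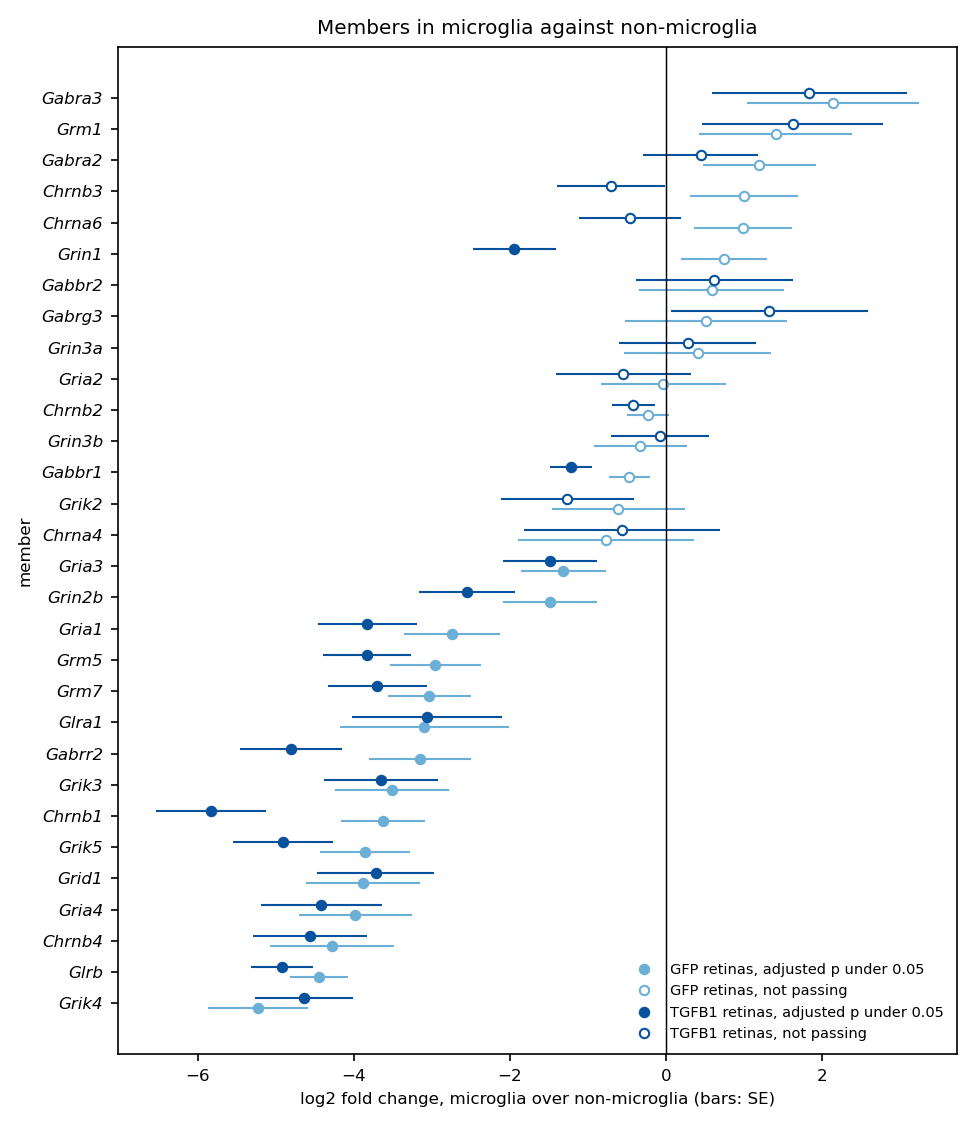
Log2 fold change (points) and SE (bars) of microglia over non-microglia for 30 of the tested members, in GFP and TGFB1 retinas; filled points passed the edgeR test. All filled points lie to the left of 0, 15 in GFP and 17 in TGFB1 retinas. Gabra3, with 4 and 1 counts in GFP non-microglia, is farthest to the right at 2.14 without passing.

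Genes that serve these receptors were read from lists chosen alongside the members. In the TGFB1 comparisons no gene of these lists that could be tested was called, but 3 of the 8 lists had no tested gene in microglia and 2 had none in non-microglia. Over all tested genes only 0.31% in microglia and 0.39% in non-microglia were called, so nothing is read from this absence. Between fractions in GFP retinas, 34.2% of all tested genes were called lower in microglia and 29.9% higher. There 4 of 6 tested AMPA and kainate auxiliary subunits were lower in microglia. Among them was Cacng4, an AMPA receptor trafficking subunit, with means of 1.10 CPM in microglia and 24.1 CPM in non-microglia. Of 12 tested glutamate receptor scaffolds 9 were lower, among them Dlg4, the postsynaptic density protein PSD-95, at 11.2 and 47.6 CPM. Of 10 inhibitory synapse genes 7 were lower and 2 higher. Gphn, which encodes gephyrin, the anchor of glycine and GABA-A receptors, was lower (16.2 and 42.8 CPM; adjusted p = 1.369e-05 in edgeR for a log2 difference of -1.40 ± 0.235, SE), and Gabarap, which also serves autophagy in all cells, was higher (183 and 91.7 CPM). Of 10 tested uptake and breakdown genes 8 were lower and Ache, the enzyme that splits acetylcholine, was higher (27.1 and 15.7 CPM). Of 5 synthesis and vesicle transport genes 4 were lower and Slc17a6, a vesicular glutamate transporter that also marks ganglion cells, was higher (4.91 and 0.946 CPM). Of 5 nicotinic assembly genes 2 were lower and 2 higher, near the shares of all genes, so nothing is read from this split. The 2 higher were Rapsn (11.2 and 1.66 CPM), which clusters muscle nicotinic receptors, and Rer1, an endoplasmic reticulum sorting protein. Of the lists of subunits outside the rule and of muscarinic receptors, 1 and 0 genes could be tested.

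The remaining 24 members were in no test. Their counts summed to between 1 and 73 over the 18 libraries, with at most 13 in a library. They were Chrna1, Chrna2, Chrna3, Chrna5, Chrna7, Chrna9, Chrna10, Gabra4, Gabra5, Gabra6, Gabrb1, Gabrb2, Gabrg1, Gabrr3, Glra2, Glra3, Glra4, Grin2a, Grin2c, Grin2d, Grm2, Grm3, Grm4 and Grm8. At this depth differences in these genes were not detectable. Chromosomal neighbours could differ in level. On chromosome 9 (54980880-55048779) Chrnb4 averaged 8.11 CPM in GFP non-microglia beside 0 and 0.63 CPM for Chrna5 and Chrna3, while in GFP microglia the means were 0.326 CPM for Chrnb4, 0 for Chrna5 and 1.77 CPM for Chrna3.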

How the data were processed

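RNA sequencing libraries of sorted retinal microglia (14) and non-microglia (4) were analysed. The authors deposited raw read counts per Ensembl gene, 1 column per library; per the labels' protocols, polyA RNA was made into libraries by a modified Smart-Seq2 method. Per the submitters' processing notes, STAR, featureCounts and DESeq2 were used with GRCm38.p6; the sources used here give no versions, annotation release or strand setting. Of 54532 genes 54495 were named from GENCODE M21 (GRCm38).

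Genes were tested with edgeR 4.0.16 (R 4.3.3; TMM, filterByExpr, robust quasi-likelihood F test) with Benjamini-Hochberg adjustment over all genes tested and a threshold of 0.05. SE is the size of the log2 fold change divided by the square root of F. Within-fraction comparisons used the libraries of that fraction, all others the fit of 18 libraries, whose TMM-scaled library sizes also gave CPM. Exon overlaps were computed with bedtools 2.31.1. The steps were tested on simulated data. DESeq2 1.42.0, limma 3.58.1 (voom), other scaling, no filter, a replicate block, marker covariates and left-out libraries were alternatives; for the fraction comparisons, leaving out 3 libraries was added after seeing the data. Reads carry no molecular identifiers, so floors cover counting error only.

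Members and gene lists were chosen with earlier results of these data known. Values in every library (range and median for groups of 7) are given for members called between treatments, the 6 (non-microglia) and 4 (microglia) with the smallest p, the highest per kilobase of each family, and those averaging at least 5 CPM in GFP microglia. Gria1, Grid1, Grik3, Grik5, Glra1, Gabra3, Gabbr2, Chrna3, Chrna5 and Chrnb4 were singled out after their values were seen. A few members count in the totals but are not reported by name here.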

Additional observations from a re-analysis of the deposited data

Results flagged for a closer look

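In 12 of 34 groups of 7 microglia libraries tested (17 members given in full, GFP and TGFB1 separately), the highest library stood apart from the rest: its gap to the next library, divided by the whole range, passed Dixon's critical value of 0.568. A rate of about 1 in 20 flagged groups holds for independent groups of normally distributed values. Here many counts were low and the groups shared the same libraries, so that rate does not apply. All but 1 of the 12 were GFP microglia 2 or TGFB1 microglia 6.

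In GFP microglia 2 these were Gria3 (17.7 CPM), Grin3b (10.6 CPM), Grm7 (9.42 CPM), Grm5 (8.84 CPM) and Grik4 (4.12 CPM). In TGFB1 microglia 6 they were Chrna6 (16.9 CPM), Gria2 (16.9 CPM), Gabrr2 (13.4 CPM), Gabra2 (12 CPM), Gria4 (12 CPM) and Glrb (8.47 CPM). Grin3b in TGFB1 microglia 4 (7.66 CPM) was the exception. In the same libraries the summed ON bipolar markers were 204 CPM (GFP microglia 2) and 79.8 CPM (TGFB1 microglia 6), the highest of their groups, against medians of 41.4 and 35.7 CPM; their part in these values was not tested.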

How the results depend on the processing

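Numbers of called members kept their side in most alternatives. In microglia, 0 members fell with TGFB1 in the reported fit, against 3 without the filter on low counts (Grin1, Chrna6 and Chrnb3) and 1 (Grin1) with DESeq2, with the replicate block or without the 3 libraries highest in Müller glia genes; leaving out 1 library gave 0 to 1. With the block the log2 fold change of Grin1 was -1.62 (edgeR, adjusted p = 0.0267). In non-microglia, 1 member rose in the reported fit, 2 without the filter, 2 with the replicate block and 0 in the fit of all 18 libraries; leaving out 1 library gave 1 to 2. For the difference of effects 1 member (Grin1) was called without the filter. The causes were not tested. Between fractions, 14 to 20 members were lower in microglia of GFP and 20 to 22 of TGFB1 retinas over the other settings, and 14 to 19 and 18 to 21 leaving out 1 library.

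The replicate numbers are not shown to pair the samples: correlations of deviations between libraries of the same number ran from -0.124 to 0.216 in microglia, where only number 2 correlated best with its own, and were -0.07 in non-microglia. The replicate block could not be fitted as a change of the fraction comparisons, since numbers lie within fractions.

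Some differences between fractions that did not pass changed sign. In GFP retinas, leaving out 1 library moved Gria2 between -0.553 and 0.688 (positive in 7 of 18 such fits) and Chrnb2 between -0.459 and 0.122, and Gria2 was 0.022 in the GFP libraries alone. In TGFB1 retinas, leaving out 1 library moved Chrna6 between -0.892 and 0.096, Chrnb3 between -1.454 and 1.136, Gabra2 between -0.249 and 2.016 and Grin3b between -0.427 and 0.300, and Grin3b was 0.016 without the 3 libraries. The causes were not tested. Depth limits the 24 members in no test.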
